A study of Mus musculus with 10 samples.

Results

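The genes C3, C4b, C2, C7, Cfb, C1ra, C1s1, Serping1 and Cd55 encode complement components and regulators that stromal cells of the vessel wall can make. They were found by symbol in the count tables, which gave 9 genes of 35667. RNA sequencing covered aortas of C57BL/6 mice aged 12 weeks, with 5 libraries labelled Ovgp1 knockout (KO) and 5 labelled wild type (WT). The titles name Ovgp1, the gene of an oviduct mucin-like secreted glycoprotein, for all KO libraries. The genotype field gives Ovgp1 for KO replicate 1 and then a different name for each of the others, Ovgp2 to Ovgp5. No label gives the part of the gene that was deleted, the line it was made in, or whether aortas were pooled.

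Complement is a cascade of plasma proteins that marks particles for uptake, calls in leukocytes and can form pores in membranes. In the classical pathway C1q recognises a target and the proteases C1r and C1s cut C4 and C2, which together cut C3. Factor B extends that step in the alternative pathway, and C7 belongs to the terminal pore. C1 inhibitor blocks the C1 proteases, and decay-accelerating factor takes apart the enzymes that cut C3. The liver makes most circulating complement, and fibroblasts, smooth muscle cells, endothelium and macrophages make some locally.

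Limits of the libraries bear on every result. Ovgp1 itself was higher in the libraries labelled KO, at 19.4 ± 1.66 CPM (counts scaled to library size), than in WT-labelled ones, at 3.70 ± 1.10 CPM (SD, n = 5 each), so each direction here follows labels that this gene goes against. The 5 libraries labelled KO were nearly identical, with a chi-square per degree of freedom between pairs of 1.77 to 3.25, against 11.0 to 154 between pairs labelled WT. It is 1 where counting error alone separates a pair. No label says that libraries came from separate animals, so p-values measure the spread between these libraries, which may be technical. The tests of the 9 genes are therefore given both for 5 against 5 libraries and with the KO counts summed into 1 sample, a fit whose spread comes from the WT libraries alone. Totals ran from 24434745 to 26694590 counts in KO-labelled libraries and from 21242030 to 24396394 in WT-labelled ones. The smooth muscle genes Acta2 and Myh11 averaged 22658 and 9077 CPM in KO-labelled libraries and 19869 and 8642 CPM in WT-labelled ones, whereas Tagln, another smooth muscle gene, was at 21.7 and 25.8 CPM.

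The windows around the start sites of 4 of these genes are shown because, of the 8 tested genes, C3 and C7 had the widest spread between WT libraries and C1ra and C1s1 the smallest adjusted p-values. They hold 250 bases before to 50 bases after the RefSeq start site in GRCm38.p6, and RefSeq windows were found for 5 of the 9 genes. Capitals mark matches on either strand to 4 patterns of factors known to induce complement genes: the interferon-gamma activated site GAS (TTCNNNGAA), the interferon element (GAAA, 2 bases of any kind, GAAA), a loose NF-kB pattern (GGG, 5 bases of any kind, CC) and C/EBP (TTGCNNAA).
C3, chr17:57228087-57228386, minus strand: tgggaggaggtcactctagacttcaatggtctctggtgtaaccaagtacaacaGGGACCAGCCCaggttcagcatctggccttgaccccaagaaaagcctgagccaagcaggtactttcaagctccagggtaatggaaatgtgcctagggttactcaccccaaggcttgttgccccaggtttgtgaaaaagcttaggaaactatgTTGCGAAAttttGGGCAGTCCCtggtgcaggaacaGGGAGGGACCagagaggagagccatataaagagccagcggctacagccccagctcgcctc
C7, chr15:5063724-5064023, minus strand: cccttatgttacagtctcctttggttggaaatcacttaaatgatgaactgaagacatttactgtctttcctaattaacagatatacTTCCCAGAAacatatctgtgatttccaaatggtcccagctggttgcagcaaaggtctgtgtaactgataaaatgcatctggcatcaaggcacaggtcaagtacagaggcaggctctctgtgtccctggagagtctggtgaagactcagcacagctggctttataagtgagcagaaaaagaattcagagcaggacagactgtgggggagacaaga
C1ra, chr6:124512371-124512670, plus strand: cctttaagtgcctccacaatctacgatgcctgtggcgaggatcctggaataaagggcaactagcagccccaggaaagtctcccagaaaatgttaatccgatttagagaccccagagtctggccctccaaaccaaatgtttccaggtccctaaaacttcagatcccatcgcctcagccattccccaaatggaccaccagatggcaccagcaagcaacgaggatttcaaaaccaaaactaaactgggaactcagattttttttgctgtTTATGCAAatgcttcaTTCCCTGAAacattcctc
C1s1, chr6:124542310-124542609, minus strand: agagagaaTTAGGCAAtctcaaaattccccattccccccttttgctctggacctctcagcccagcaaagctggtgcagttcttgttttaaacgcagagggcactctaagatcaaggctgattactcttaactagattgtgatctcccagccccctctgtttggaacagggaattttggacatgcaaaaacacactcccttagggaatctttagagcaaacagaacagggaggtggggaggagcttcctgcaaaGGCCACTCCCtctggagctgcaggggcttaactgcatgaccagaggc

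The 4 windows held different matches. The C3 window held the C/EBP pattern from 45 bases before the start site and the NF-kB pattern in 3 separate stretches, of which some matched on both strands. The C7 window held the GAS pattern from 164 bases before the start site, and the C1ra window held it from 32 bases after. In GENCODE M21, the source of the gene positions given below, C1ra begins at 124512405, so most of its window lies inside the gene. The C1s1 window shown, the first of 2 RefSeq entries, held the C/EBP pattern near its far end and the NF-kB pattern just past the start site, and its C1ra neighbour held C/EBP from 16 bases after. In the second C1s1 entry the same NF-kB match lies from 35 bases before the start site, and C/EBP has no match. None of the 4 held the interferon element. Of all 32851 windows in the table, 8.30% held GAS, 3.44% the interferon element, 50.8% the NF-kB pattern and 10.8% C/EBP. A match describes letters in the window and does not make it a site.

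Of the 9 complement genes, 8 passed the filter on low counts, and Cfb did not. All 8 had a positive log2 difference (KO minus WT), as did 45.8% of the 15710 genes tested, and their median was 0.38 against -0.02 over all genes tested. In the 5 against 5 test of edgeR 4 rose in libraries labelled KO at an adjusted p under 0.05 and 0 fell, where 6.84% of all genes rose. They were C1ra, C1s1, Serping1 and Cd55. The 9 genes were chosen with earlier results of these data known, so setting them beside all genes is a description and no test. In bulk RNA a different number of cells and a different amount of RNA per cell cannot be told apart. For these 4 and C7 every library labelled KO lay above every library labelled WT, which held for 7.38% of all genes tested. With KO summed as 1 sample 0 of the 8 passed in either direction, where 0.0446% of all genes rose, and 2 of the 8, C1ra and C1s1, were higher at an unadjusted p under 0.05, as were 2.36% of all genes. The 5 against 5 count was also 4 with RLE size factors (7.12% of all genes rose), without the low-count filter (3.63%) and with DESeq2 (9.41%). It was 3 to 5 when 1 library was left out, where 4.13% to 8.62% of all genes rose. With KO summed it stayed 0 without the filter (0.320% of all genes rose) and without 1 WT library (0.00637% to 0.0318%).

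**Figure D1:**
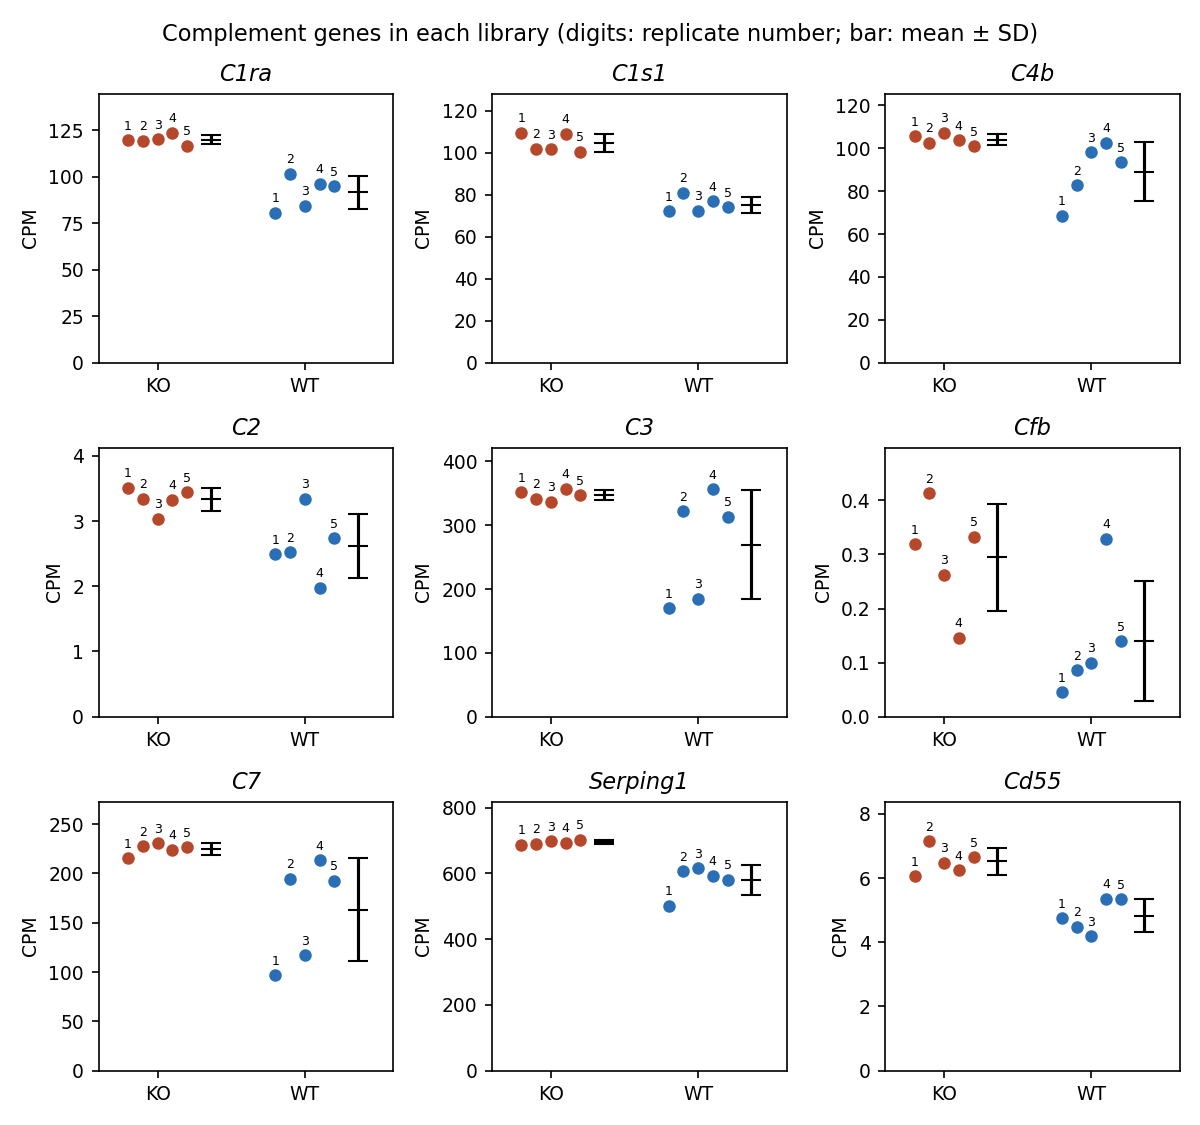
Level of each of the 9 complement genes in CPM (y axis from 0) in the 5 libraries labelled KO and the 5 labelled WT; digits give the replicate number and bars the mean ± SD. The libraries labelled KO lie close together in each panel except Cfb, and C3 and C7 are lowest in WT replicates 1 and 3.

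C1ra encodes C1r, the protease that activates C1s, and C1s1 encodes C1s, which cuts C4 and C2. The genes lie on chromosome 6 (GRCm38, 124512405 to 124523443 and 124530345 to 124542359), on opposite strands and 6901 bases apart. C1s1 had 110, 102, 102, 109 and 101 CPM in KO replicates 1 to 5 and 72.1, 81.0, 72.4, 76.8 and 73.9 CPM in WT replicates 1 to 5. The groups did not overlap, and the WT libraries lay close together. C1s1 was 1.39-fold higher in libraries labelled KO (95% interval 1.29 to 1.496), a log2 difference of 0.47 (SE 0.05, adjusted p = 0.000178, edgeR). With KO summed the interval was 1.16 to 1.66 and the adjusted p 0.847.

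C1ra had 120, 120, 120, 124 and 117 CPM in KO replicates 1 to 5 and 80.6, 102, 84.6, 96.4 and 95.1 CPM in WT replicates 1 to 5. All libraries labelled KO again lay above all labelled WT. The log2 difference of C1ra was 0.39 (SE 0.06, adjusted p = 0.00279, edgeR), a fold of 1.31 (95% interval 1.19 to 1.44), with an interval of 1.03 to 1.66 and an adjusted p of 0.999 with KO summed. There were 1.09 to 1.19 counts of C1ra per count of C1s1 in KO-labelled libraries and 1.119 to 1.29 in WT-labelled ones. C1s1 alone spanned only 1.09-fold in KO-labelled libraries and 1.12-fold in WT-labelled ones, so this ratio cannot show whether the 2 genes vary together.

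Serping1 encodes C1 inhibitor, the serpin that inactivates C1r and C1s, whose lack causes hereditary angioedema in humans. On chromosome 2 (84765387 to 84775444), it was the most abundant of the 9 genes. It had 687, 690, 698, 694 and 702 CPM in KO replicates 1 to 5 and 501, 607, 616, 593 and 581 CPM in WT replicates 1 to 5. WT replicate 1 lay below the other WT libraries, and no WT library reached the lowest one labelled KO. Serping1 was 1.20-fold higher (95% interval 1.095 to 1.31); its log2 difference was 0.26 (SE 0.06, adjusted p = 0.0143, edgeR), and with KO summed the interval was 0.94 to 1.53 and the adjusted p 0.999. Per count of C1ra and C1s1 together there were 2.98 to 3.23 counts of Serping1 in KO-labelled libraries and 3.28 to 3.92 in WT-labelled ones. These ratios did not overlap between the groups and, having been picked after the values were seen, were given no test.

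Cd55 encodes decay-accelerating factor, the membrane-anchored regulator that takes apart C3-cutting enzymes on host cells (chromosome 1, 130439027 to 130462744). It was expressed at 6.06, 7.14, 6.48, 6.25 and 6.66 CPM in KO replicates 1 to 5 and at 4.76, 4.49, 4.19, 5.35 and 5.34 CPM in WT replicates 1 to 5. The groups did not overlap. The log2 difference was 0.43 (SE 0.10, adjusted p = 0.0170, edgeR), a fold of 1.35 (95% interval 1.16 to 1.58). With KO summed the interval was 0.93 to 1.96 and the adjusted p 0.999. Without KO replicate 2, the highest, Cd55 did not pass (adjusted p = 0.0522, edgeR), where 4.32% of all genes rose.

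C3 and C7 had the widest spread between WT libraries of the 8 tested genes. C3 encodes the protein at which all activation pathways meet (chromosome 17, 57203970 to 57228136). It had 352, 342, 337, 358 and 347 CPM in KO replicates 1 to 5 and 170, 322, 185, 356 and 313 CPM in WT replicates 1 to 5. WT replicates 1 and 3 were low, WT replicates 2 and 5 lay just under the libraries labelled KO, and WT replicate 4 lay among them. The log2 difference of 0.37 (SE 0.19) did not pass (adjusted p = 0.232, edgeR), with a 95% interval of the fold of 0.96 to 1.73 and, with KO summed, of 0.66 to 2.51.

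C7 encodes a component of the terminal pore (chromosome 15, 4988762 to 5063740) and followed the same order of WT libraries as C3. It had 215, 227, 231, 224 and 227 CPM in KO replicates 1 to 5 and 96.8, 195, 117, 214 and 193 CPM in WT replicates 1 to 5. All libraries labelled KO lay above all labelled WT, WT replicate 4 by a small margin. The log2 difference of 0.46 (SE 0.19) did not pass (adjusted p = 0.141, edgeR), with a 95% interval of the fold of 1.02 to 1.86, or 0.70 to 2.70 with KO summed. C3 and C7 kept close to each other, at 1.46 to 1.64 counts of C3 per count of C7 in KO-labelled libraries and 1.58 to 1.76 in WT-labelled ones.

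**Figure D2:**
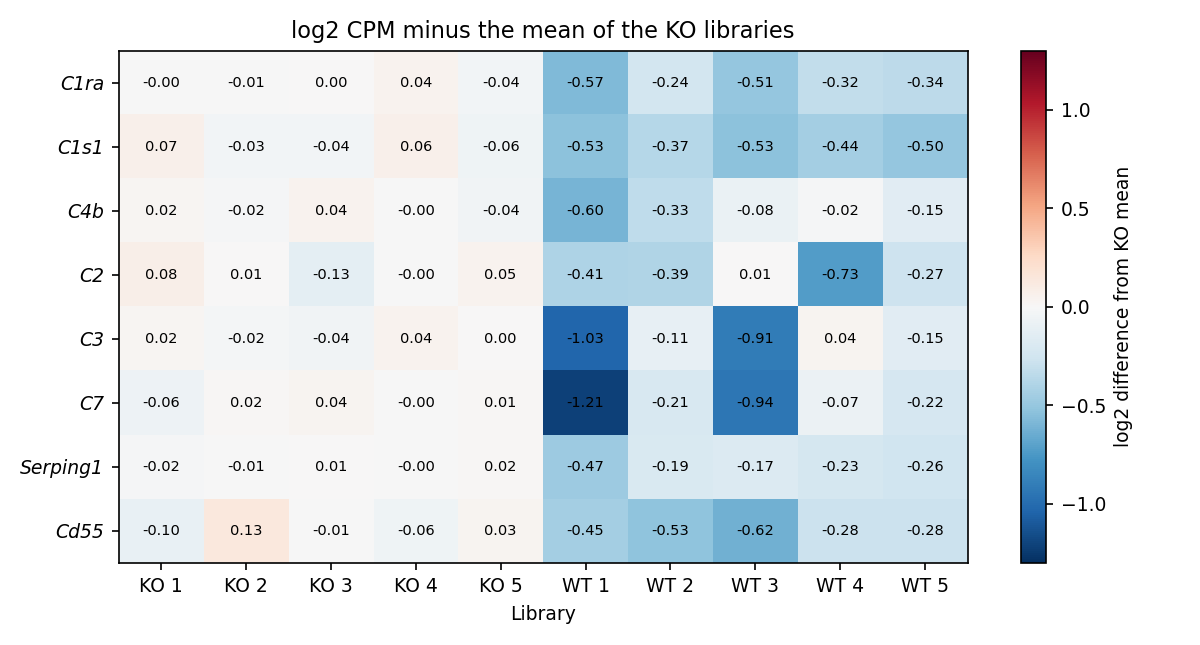
log2 CPM of the 8 tested genes (rows) in each library (columns) minus the mean of the 5 libraries labelled KO; colour and digits give the same value. C3 is at -1.03 and -0.91 and C7 at -1.21 and -0.94 in WT replicates 1 and 3, while C1s1 is at -0.37 to -0.53 in all 5 WT libraries.

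WT replicates 1 and 3 also stood apart in other measures. The mitochondrial genome gave 16.2% and 13.2% of their counts, against 7.61% to 7.88% in KO-labelled libraries and 6.75% to 9.59% in the other WT libraries. Their 5 smooth muscle markers summed to 38709 and 38667 CPM, against 35043 to 35712 CPM in KO-labelled libraries and 25182 to 30655 CPM in the other WT libraries. Without both libraries the log2 difference was 0.09 for C3 and 0.18 for C7, and 0.45 for C1s1, 0.31 for C1ra, 0.24 for Serping1 and 0.38 for Cd55. In that fit 7 genes, all but C3 of the 8, rose in libraries labelled KO, where 13.7% of all genes rose. C7 passed there at an adjusted p of 0.0119 (edgeR), with a smaller difference and a smaller WT spread. With KO summed 0 of the 8 passed without both, where 0.0509% of all genes rose. The other WT libraries were not alike either. Their 5 adipocyte markers summed to 125, 678 and 479 CPM in WT replicates 2, 4 and 5, against 201 to 216 CPM in KO-labelled libraries. The part of these measures in the C3 and C7 differences was not tested.

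C4b and C2 supply the classical enzyme that cuts C3. C4b, the complement C4 gene of mice (chromosome 17, 34728380 to 34743882), had 106, 103, 107, 104 and 101 CPM in KO replicates 1 to 5 and 68.6, 82.8, 98.1, 103 and 93.6 CPM in WT replicates 1 to 5. The groups overlapped through WT replicate 4, and WT replicate 1 was lowest. The log2 difference of C4b was 0.22 (SE 0.09, adjusted p = 0.130, edgeR), with a 95% interval of the fold of 1.01 to 1.34. C2 (chromosome 17, 34862604 to 34898265) was sparse, with 3.51, 3.35, 3.03, 3.33 and 3.44 CPM in KO replicates 1 to 5 and 2.49, 2.52, 3.34, 1.98 and 2.74 CPM in WT replicates 1 to 5. WT replicate 3 lay within the KO range. The log2 difference of C2 was 0.35 (SE 0.14, adjusted p = 0.127, edgeR), with an interval of the fold of 1.03 to 1.59. Without WT replicate 3 it passed (adjusted p = 0.0411, edgeR), where 7.80% of all genes rose. With KO summed the intervals were 0.83 to 1.63 for C4b and 0.76 to 2.14 for C2.

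Cfb encodes factor B, the protease of the alternative pathway enzyme, and lies 85 bases from C2 (chromosome 17, 34856374 to 34862518). It had 8, 11, 7, 4 and 9 counts in KO replicates 1 to 5 and 1, 2, 2, 8 and 3 counts in WT replicates 1 to 5. WT replicate 4 lay among the libraries labelled KO. Without the filter on low counts its log2 difference did not pass, at 1.07 (adjusted p = 0.306, edgeR), or 1.10 (adjusted p = 0.777, edgeR) with KO summed.

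**Figure D3:**
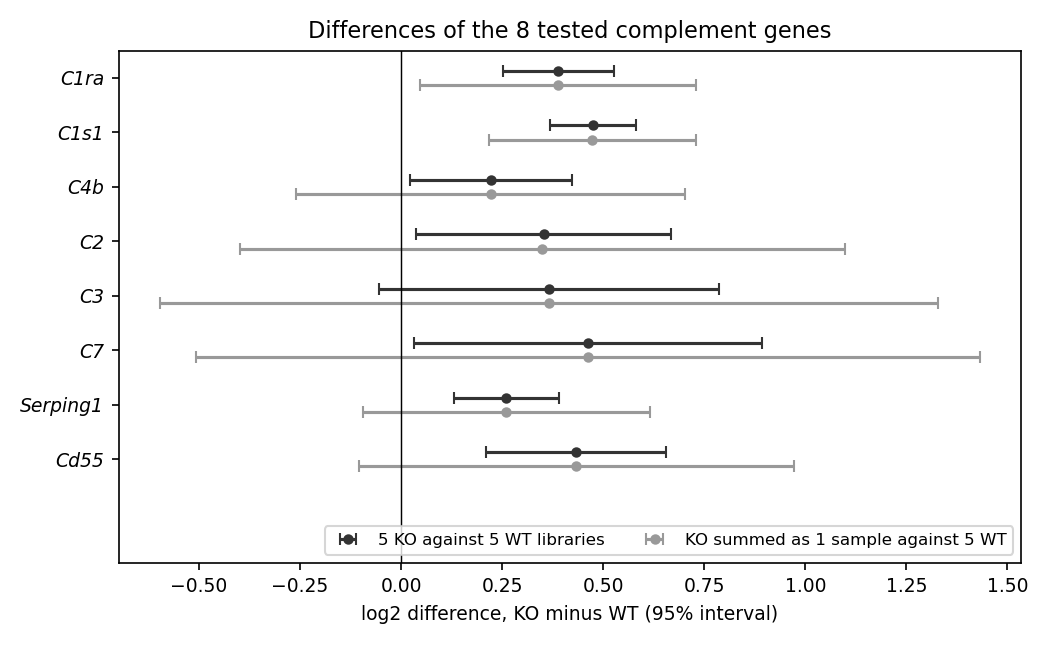
log2 difference (KO minus WT) of the 8 tested genes with 95% intervals, in the test of 5 against 5 libraries (dark) and with KO summed as 1 sample (grey). All points lie above 0; with KO summed the intervals of C1ra and C1s1 alone lie wholly above 0.

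Per kilobase of merged exon the order of levels was the same in both groups. Serping1 led at 299 CPM per kilobase in KO-labelled libraries and 249 in WT-labelled ones, followed by C7 (84.0 and 60.9), C3 (67.5 and 52.4), C1ra (40.3 and 30.8), C1s1 (33.4 and 24.0) and C4b (18.3 and 15.7). The membrane regulator Cd55 (1.34 and 0.99), C2 (0.86 and 0.68) and Cfb (0.10 and 0.05) were far below. Each gene exceeded the next in all 10 libraries. In libraries labelled WT the range of C7 overlapped that of C3 and the range of C3 that of C1ra, although within each library the order held. The 9 genes together took 0.164% to 0.166% of counts in KO-labelled libraries and 0.0902% to 0.145% in WT-labelled ones.

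Several of these genes have close copies or overlapping partners, and whether counting used strand is not given in the sources used here. Of the words of 50 bases in the C4b transcript 35.2% also occur in C4a, which encodes the sex-limited form of C4. The share was 48.0% for C1ra in C1rb, 24.3% for C1s1 in C1s2 and 13.3% for Cd55 in Cd55b. The copies were low: C4a averaged 1.46 and 1.61 CPM in KO- and WT-labelled libraries, C1rb 0.37 and 0.31 CPM, C1s2 0.35 and 0.30 CPM, and Cd55b 0.015 and 0.0091 CPM. Cfb and C2 share many of their words with the readthrough gene Gm20547, C2 overlaps Zbtb12 on the other strand, and the antisense gene Gm16567 spans 11400 of the 12015 bases of C1s1. The deposited counts hold no entry for Gm20547 or Gm16567. Values of Cfb, C2, C4b, C1ra, C1s1 and Cd55 are uncertain to the extent that counting split or merged such reads.

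Beyond the 9 genes, 47 other complement genes of a list of 49 were in the tables and 31 were tested. In the 5 against 5 test 1 rose and 1 fell, where 6.84% of all genes rose and 7.43% fell. With KO summed 0 passed in edgeR, and 0 were past an unadjusted p of 0.05. Their median log2 difference was -0.00, and 15 of 31 were positive. C1rl, a relative of C1r, rose to 11.0 CPM in libraries labelled KO, against 8.48 CPM in WT-labelled ones (log2 difference 0.37, SE 0.10, adjusted p = 0.0344, edgeR). Cfhr2, of the fluid-phase regulator list, fell to 0.86 CPM in libraries labelled KO, against 1.52 CPM in WT-labelled ones (log2 difference -0.81, SE 0.25, adjusted p = 0.04999, edgeR). Its counts were low, at most 29 in a library labelled KO and 41 in one labelled WT. The groups overlapped, as WT replicate 1, at 0.82 CPM, lay within the KO range of 0.60 to 1.09 CPM.

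The macrophage-made chains of C1q did not pass. In libraries labelled KO and WT, C1qa averaged 50.1 and 43.6 CPM, C1qb 39.9 and 43.9 CPM and C1qc 38.4 and 33.0 CPM (adjusted p 0.182 to 0.636, edgeR). Clu, which encodes clusterin, an inhibitor of the terminal pore, did not pass either, at 1537 and 1480 CPM, a difference of 0.05 on the log2 scale (SE 0.07). Cfd, the adipocyte-made factor D, had a log2 difference of 0.34 (SE 0.27), and Cfp, which encodes properdin, -0.34 (SE 0.10, adjusted p = 0.0505, edgeR). The membrane regulators Cd46 and Cd59a had -0.14 and -0.26, and the receptors of the fragments C3a and C5a, C3ar1 and C5ar1, 0.05 and -0.15. Of the 7 membrane regulators tested beyond the 9 genes, 3 were above 0. Cr1l was among them, at 101 and 95.4 CPM with a log2 difference of 0.09, without passing. Cfi, the protease that degrades C3b, was not tested, with at most 3 counts in a library labelled KO and 5 in one labelled WT. The terminal genes Hc, C8a and C9 were not tested, and C6 was at 0.85 and 0.37 CPM without passing.

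**Figure D4:**
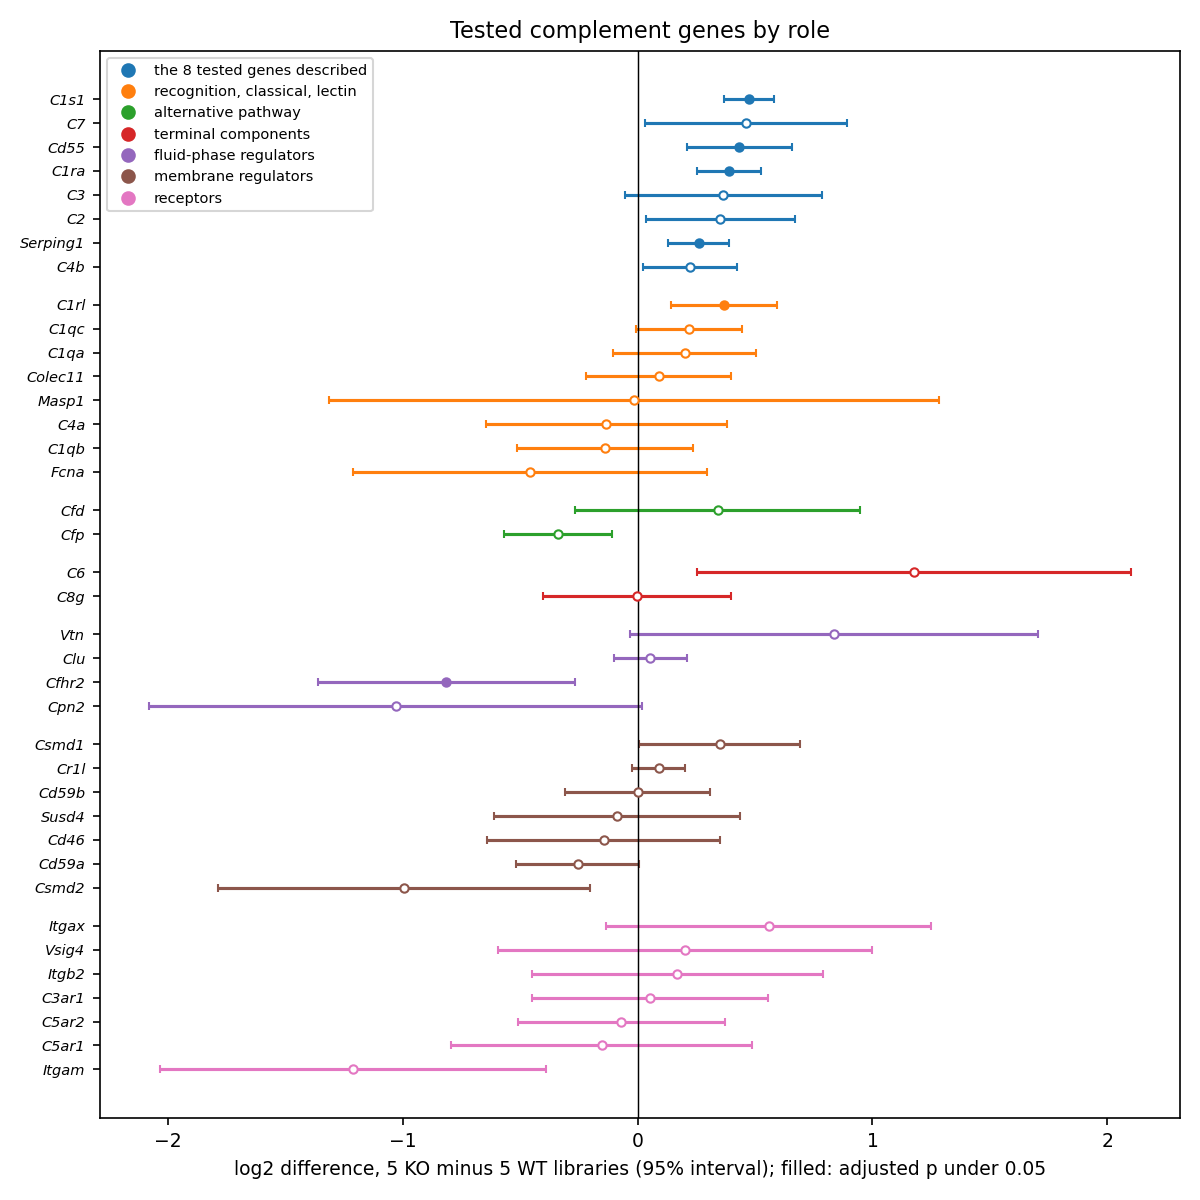
log2 difference (5 libraries labelled KO minus 5 labelled WT) with 95% intervals for tested complement genes, coloured by role; filled points passed an adjusted p of 0.05. The 8 genes described lie to the right of 0, and the others scatter on both sides.

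Fibroblasts are among the cells that make these components. Of 6 adventitial fibroblast markers 4 (Dcn, Lum, Dpt and Cd34) rose and 0 fell in the 5 against 5 test, where 6.84% of all genes rose and 7.43% fell, with a median log2 difference of 0.32. Pi16 and Pdgfra did not pass, and Pdgfra had a log2 difference of -0.05. With KO summed 0 passed in edgeR, and 2 were higher at an unadjusted p under 0.05, as were 2.36% of all genes. Their summed level was 2420 to 2467 CPM in KO-labelled libraries and 1592 to 2086 CPM in WT-labelled ones, and none was at 0. The proteoglycan gene Dcn averaged 1528 and 1188 CPM and Lum 277 and 155 CPM in KO- and WT-labelled libraries. The summed level of the 9 complement genes was 1594 to 1621 CPM in KO-labelled libraries and 997 to 1446 CPM in WT-labelled ones. Divided by the summed fibroblast markers it was 0.648 to 0.670 in KO-labelled libraries and 0.626 to 0.724 in WT-labelled ones, ranges that overlap. Dcn made up most of the marker sum. Serping1 gave 42.8% to 43.8% of the complement counts in KO-labelled libraries and 41.0% to 52.2% in WT-labelled ones. The ratio therefore follows mainly the most abundant genes. The part of fibroblasts in the complement differences was not tested.

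**Figure D5:**
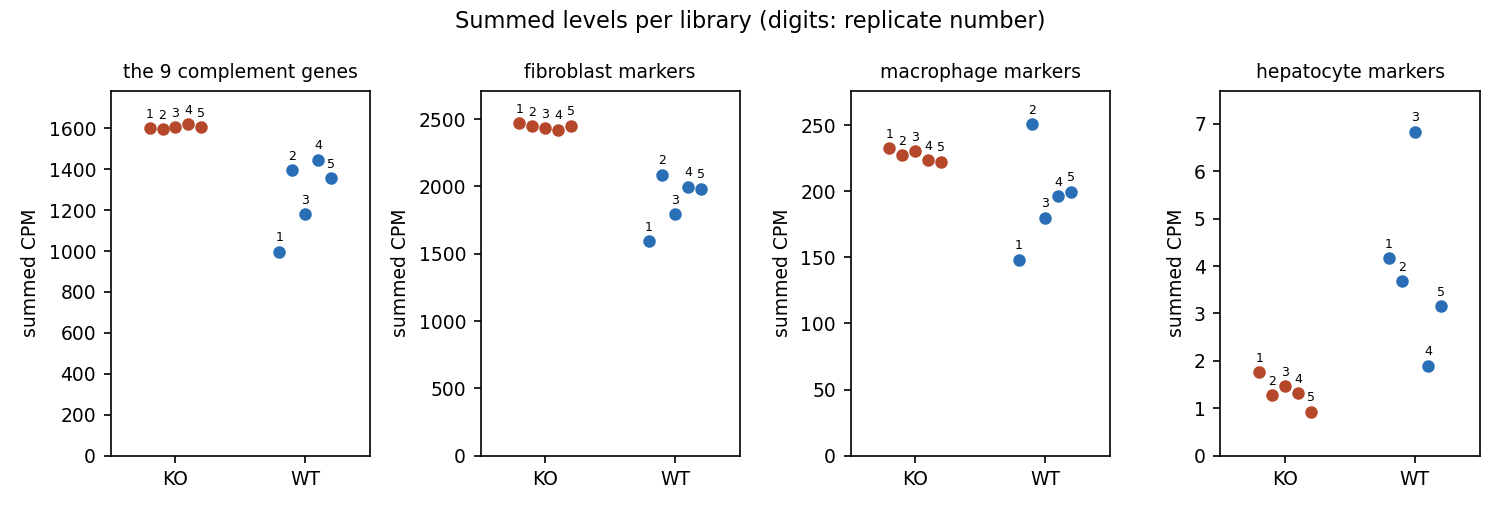
Summed CPM (y axis from 0) of the 9 complement genes and of the markers of fibroblasts, macrophages and hepatocytes in each library, labelled KO on the left and WT on the right; digits give the replicate number. The complement and fibroblast sums are higher in all libraries labelled KO than in any labelled WT, and the hepatocyte sums are lower.

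Other cell types were read the same way, and the same shares of all genes, 6.84% higher and 7.43% lower, stand beside each 5 against 5 count. Liver transcripts were scarce: the 6 hepatocyte markers summed to 0.925 to 1.76 CPM in KO-labelled libraries and 1.89 to 6.84 CPM in WT-labelled ones, and Apob and Fgb were at 0 in 3 libraries labelled KO and 1 labelled WT. Of the 2 tested, Apoa1 did not pass and Alb fell. Alb was highest in WT replicates 1 and 3, at 2.58 and 4.19 CPM. WT replicate 2, at 0.34 CPM, lay within the KO range of 0.18 to 0.49 CPM. The 6 macrophage markers summed to 222 to 232 CPM in KO-labelled libraries and 148 to 251 CPM in WT-labelled ones; Adgre1 and Csf1r rose, Csf1r to 41.7 CPM against 26.5 CPM. The most abundant, Lyz2, averaged 114 and 96.8 CPM without passing, while Mrc1, Cd163 and Cd68 had log2 differences of -0.18, -0.00 and -0.01. The 5 endothelial markers, led by Pecam1 and Vwf, summed to 253 to 262 CPM and 141 to 592 CPM, and the 5 adipocyte markers, led by Ucp1 and Cidec, to 201 to 216 CPM and 67.7 to 678 CPM, with 0 passing in either list. Of 5 smooth muscle markers 0 rose and 1 fell, Tagln, which was far below Acta2 and Myh11 in level, as given above. Of 5 mesothelial markers 2 were tested, and 1 had a positive log2 difference. Upk3b rose, at 1.19 and 0.26 CPM, while Wt1 was not above 0 and did not pass. Of 6 lymphocyte markers 4 were tested and Ighm and Ptprc rose. The other tested lymphocyte markers, Cd79a and Cd3e, had log2 differences of -0.61 and 0.03 without passing. Of 6 nerve markers 4 rose, Mbp, the most abundant, among them. Of all these markers Ighm alone also passed with KO summed, at 157 CPM in KO-labelled libraries and 9.35 CPM in WT-labelled ones. The part of these cells in the complement differences was not tested.

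Of 21 tested interferon-gamma response genes 2 rose, Psmb9 and Tap1 of antigen processing, and 0 fell, where 6.84% of all genes rose and 7.43% fell. Their median log2 difference was 0.15, and 17 of 21 were above 0, as were 45.8% of all genes. Psmb9 averaged 5.84 and 3.27 CPM (log2 difference 0.84, SE 0.14) and Tap1 11.5 and 8.42 CPM (0.45, SE 0.12) in KO- and WT-labelled libraries. The transcription factor gene Irf1 had 0.15 without passing, and the receptor genes Ifngr1 and Ifngr2 -0.12 and 0.23. Of 17 tested acute phase and NF-kB genes 0 rose and 2 fell, with a median of -0.23 and 4 of 17 above 0. Both counts lie near the shares over all genes. Cebpb, which encodes a C/EBP factor, averaged 1.85 and 4.65 CPM (log2 difference -1.33, SE 0.18, adjusted p = 0.00109, edgeR), and Rela, an NF-kB subunit, 73.2 and 86.0 CPM (-0.23, SE 0.07, adjusted p = 0.0443, edgeR). The most abundant members, Stat3 and Nfkbia, had -0.20 and -0.23 without passing. With KO summed 0 genes of either list passed over all genes, and 1 interferon-gamma gene was higher and 1 acute phase gene lower at an unadjusted p under 0.05, as were 2.36% and 1.36% of all genes.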

How the data were processed

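RNA from aortas was made into libraries with the Illumina TruSeq RNA kit, per the labels' protocols. Each deposited file gives raw counts of reads by Ensembl gene. Bowtie 0.12.2 is named in the submitters' processing notes, as are mm8 and mm9, without saying what each was used for. How reads were counted, and on which annotation, is not given in the sources used here. Gene positions and exon lengths come from GENCODE M21 (GRCm38). Counts were tested with the quasi-likelihood test of edgeR 4.0.16, run in R 4.3.3 with robust fitting, TMM scaling and filterByExpr (minimum count 10, minimum total 15), KO against WT without a covariate, and Benjamini-Hochberg adjustment over all 15710 genes tested (threshold 0.05). Each SE comes from the log2 difference and its F statistic (difference over root F). CPM are TMM-scaled. The same test was run with KO counts summed into 1 sample. Simulated counts with known changes were used to check the 2 fits. Where all simulated KO libraries came from 1 source, most calls of the 5 against 5 test were genes that had not been changed, which was not so with KO summed. Alternatives were median-ratio (RLE) size factors, no low-count filter, DESeq2 1.42.0, a replicate block, leaving out each library, and leaving out WT replicates 1 and 3. The 9 genes and all lists were chosen with earlier results of these data known. By rule, the text names the 9 genes, preset complement genes and others past the threshold, the 2 most abundant tested genes of each marker list and Ovgp1; other genes were named after their values were seen, and a few that the rule covers are not reported here. SDs over the KO libraries are small and need not reflect differences between animals.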

Additional observations from a re-analysis of the deposited data

How the results depend on the processing

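All 8 tested complement genes kept a positive log2 difference under every alternative run, in both fits. In the 5 against 5 test 4 rose under RLE size factors, no low-count filter and DESeq2, 3 with the replicate block and 7 without WT replicates 1 and 3 together; leaving out 1 library gave 3 to 5. C1ra, C1s1 and Serping1 passed in all of these, and Cd55 did not with the replicate block (adjusted p = 0.0610) or without KO replicate 2. Same-numbered libraries had correlations of deviations of -0.0397 to 0.0424. The KO libraries were nearly identical, so these correlations cannot show whether the numbers mark pairs. Over all genes the block gave 694 higher and 625 lower, against 1075 and 1167 without it. Leaving out 1 library gave 656 to 1374 higher and 626 to 1361 lower, with the low end where a KO library was left out. No low-count filter gave 1294 higher and 676 lower, and leaving out WT replicates 1 and 3 gave 2204 and 2182. With KO summed 0 of the 8 passed under any alternative. Over all genes that fit gave 7 higher and 0 lower, 1 to 5 higher without 1 WT library, 114 and 11 without the low-count filter, and 8 and 5 without WT replicates 1 and 3. The cause of these shifts was not tested. Cfb, with few counts, was fitted without the filter alone.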

Other observations

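The genes whose pattern over the 10 libraries was most like that of C7 were Tnfrsf11b, which encodes the decoy receptor osteoprotegerin, Vcl, which encodes vinculin, and the amino acid transporter gene Slc7a2. Their root mean square differences from C7 in centred log2 CPM were 0.0733, 0.116 and 0.123, the smallest of 11635 protein-coding genes outside the complement lists. For Cfb the nearest were Fn1, Asb10 and Il15 at 0.317, 0.330 and 0.332. These 2 genes had the widest range over the libraries, 1.25 for C7 and 1.96 for Cfb on the log2 scale, and the counts of Cfb are low. The likeness is a description of 10 libraries of which the 5 labelled KO are nearly identical.

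C1s1 varied about as little between libraries labelled WT as between those labelled KO. Its chi-square per degree of freedom, 1 where counting error alone acts, was 4.84 in libraries labelled KO and close to that in those labelled WT. For C3 it was 5.14 and 593, for C7 3.87 and 368 and for Serping1 1.36 and 79.1. C4b had 1.61 and 46.8 and C1ra 1.46 and 18.7. Cd55 had 0.693 and 1.2, C2 0.262 and 2.06 and Cfb 0.903 and 2.03, all at lower counts. At the same relative spread this value grows with the count, so it does not rank the genes by spread. The highest WT library was 1.23-fold the lowest for Serping1, 1.5-fold for C4b, 1.26-fold for C1ra, 1.28-fold for Cd55 and 1.12-fold for C1s1.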
